A study of Mus musculus with 12 samples.

Results

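The genes described here encode proteins of the synaptic vesicle and of the active zone, the stretch of presynaptic membrane where vesicles fuse. They were chosen as a list of gene symbols, with earlier results of these data known: 38 symbols were looked up in a table of 24340 rows, and all 38 were found. The RNA came from the left and right retinas of 6 p16-3MR mice aged 12 to 16 weeks, taken 3 days after the pressure in one eye had been held at 85 to 90 mm Hg for 60 min. The other eye of each mouse was the control, mice 1, 2 and 5 received ganciclovir (GCV) at 25 mg/kg, and mice 3, 4 and 6 were sham-treated with PBS, which gave 4 groups of 3 retinas, named ctrl, IOP, ctrl-GCV and IOP-GCV (IOP, intraocular pressure). All 6 mice carried the transgene, a reporter with a viral thymidine kinase under the regulatory region of p16Ink4a, so GCV acts where that region is active, and no retina without the transgene is included. The values are FPKM, fragments per kilobase of transcript scaled to the size of the library, which can be compared between genes because they are given per length.

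Transmitter is stored in vesicles that are tethered by synapsins, docked and primed at the active zone by RIM and Munc13 proteins, and fused by the SNARE proteins when a synaptotagmin binds calcium. Complexins clamp and assist the SNAREs, and dynamin retrieves vesicle membrane by endocytosis. Retinal neurons differ in their terminals. Photoreceptors and bipolar cells release glutamate at ribbon synapses, which use syntaxin 3, complexins 3 and 4 and a ribbon built from RIBEYE, a product of the Ctbp2 gene, while amacrine cells form conventional synapses with synapsins, syntaxin 1 and complexins 1 and 2. Retinal ganglion cells (RGCs) have their terminals in the brain, but the mRNA of their presynaptic proteins is made in the cell bodies and is part of retinal RNA.

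The levels of the 38 genes spanned a wide range. Their means over the 12 libraries ran from 2.19 FPKM for Erc1 to 961 FPKM for Slc17a7, with a median of 49.7 FPKM against 5.05 FPKM over the 18509 rows above 0 in at least 1 library. In 36 of the 38 the value was above 0 in all 12 libraries. The lowest means were those of Erc1, Sv2c (2.42 FPKM), Syt2 (2.57), Syn3 (2.61) and Stx1a (3.51), and no interval was computed for their single values. Syt2 and Stx1a were listed at 0 in the IOP retina of mouse 6. That library stood apart: it had 14844 rows above 0, where the other 11 had 16044 to 16593, and an estimated depth of 4020000 fragments, where the others had 6830000 to 9060000. It also held the highest value of the 12 libraries for 7 of the 38 genes, Syp, Sv2b, Slc17a7, Stx3, Vamp2, Cplx4 and Rims2, of which Slc17a7, Stx3 and Cplx4 are genes of ribbon synapses. The ctrl-GCV retina of mouse 2 held the highest value for 25 of the 38. The retinal origin of the RNA could be checked with marker genes, since all listed markers of rods, cones, bipolar cells, amacrine cells and RGCs averaged 1 FPKM or more in the control retinas.

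Presynaptic mRNA was lower in the IOP-treated eye for many of these genes. Over the 6 mice, with the IOP effect averaged over mice with and without GCV, 15 of the 38 genes fell (39.5%) and 0 rose (limma, Benjamini-Hochberg adjusted p under 0.05 over 18509 rows). Among all rows tested 5.44% fell and 6.76% rose, and among the 12910 rows with a mean of 1 FPKM or more, as all 38 genes have, 6.72% fell. At an unadjusted p under 0.05, 25 of the 38 were lower (65.8%, against 16.1% of all rows and 19.2% of those at 1 FPKM or more) and 1, Ctbp2, was higher (14.2% of all rows were). The median fitted change was -0.58 on the log2(FPKM + 1) scale, where the median of all rows was 0.01. Small fitted changes, between -0.13 and 0.04, were those of Syp, Stx3, Sv2b, Syt1 and Slc17a7, all among the more abundant of the 38. Erc2, with a mean of only 6.54 FPKM, also lay in that range, at -0.13. Of the 5 abundant genes all but Syt1 had their highest value in the IOP retina of mouse 6. Without that library the changes of these 5 lay between -0.22 and -0.02, with 0 called (limma). In bulk RNA, fewer cells of a type and less RNA per cell cannot be told apart.

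The 15 calls lay close to the threshold, with adjusted p between 0.0227 and 0.0476 (limma), and their number depended on single libraries. With the mouse as a block, 4 remained called, namely Dnm1 (adjusted p = 0.0386), Rims1 (0.0409), Rph3a (0.0446) and Rab3c (0.0496). Without both retinas of mouse 6, 0 were called, while 22 were lower at an unadjusted p under 0.05 (limma). Without the IOP retina of mouse 4, 26 were called, 25 of them lower and 1, Ctbp2, higher. When other single libraries were left out the count was 0 (ctrl retina of mouse 4 or 6, ctrl-GCV retina of mouse 2 or 5), 1 (ctrl retina of mouse 3, IOP-GCV retina of mouse 5), 2 (IOP retina of mouse 3), 3 (ctrl-GCV retina of mouse 1), 8 (IOP retina of mouse 6), 10 (IOP-GCV retina of mouse 2) or 15 (IOP-GCV retina of mouse 1). Over these 12 fits Dnm1 stayed called in 8 and Rims1 in 6, and the highest adjusted p of any of the 15 genes was 0.114. At an unadjusted p under 0.05 the number lower was steadier, 21 to 26 over the same 12 fits. The median change of the 38 genes moved between -0.68 and -0.46 over all alternatives.

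Within the 2 treatments, 3 mice each, no gene of the 38 was called. Without GCV, 0 were called (limma, against 0.232% of all rows called lower, 0.248% of those at 1 FPKM or more, and 1.42% called higher). At an unadjusted p under 0.05, 15 were lower (39.5%, against 9.42% of all rows and 11.2% of those at 1 FPKM or more), 0 were higher (against 9.49%), and the median change was -0.52, which moved to -0.26 when the mouse 3 IOP retina was left out and to -0.71 when the mouse 4 IOP retina was. With GCV, 0 were called (against 0.157% lower, 0.147% of rows at 1 FPKM or more, and 1.65% higher). At an unadjusted p under 0.05, 19 were lower (50.0%, against 9.15% of all rows and 10.9% of those at 1 FPKM or more), 1, Ctbp2, was higher (against 10%), and the median change was -0.62, which moved to -0.40 when the mouse 5 IOP-GCV retina was left out and to -0.73 when the mouse 1 IOP-GCV retina was. These effects come from different mice and share no library, and the fitted changes of the 38 genes were alike in them: 32 genes were lower in both and 3 higher in both, with Pearson's r = 0.93 and Spearman's rho = 0.93 across genes, which are not independent replicates.

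**Figure D1:**
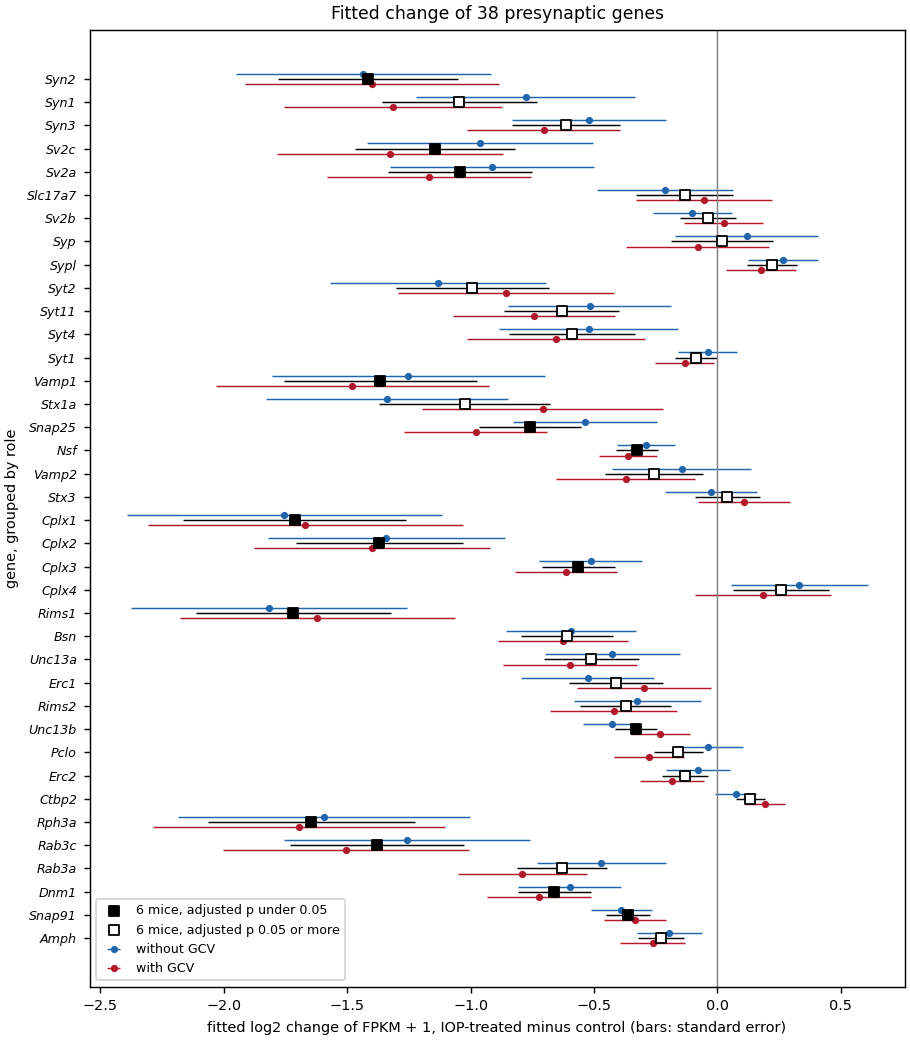
Fitted log2 changes of FPKM + 1 (horizontal axis, IOP-treated minus control, in log2 units) of the 38 genes, grouped by role, with bars of 1 standard error. Squares show the 6 mice (filled where the adjusted p was under 0.05, 15 genes), blue points the mice without GCV and red points the mice with GCV. The bars of the blue and red points overlap in every gene.

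The change between the eyes was seen mouse by mouse. In 18 of the 38 genes (47.4%) the IOP-treated eye had the lower value in all 6 mice, which held for 10.1% of all rows, and in 0 was it higher in all 6, against 10.7% of all rows. The median difference of the 38 genes between the eyes on the log2(FPKM + 1) scale was -0.78 in mouse 3, -0.14 in mouse 4 and -0.47 in mouse 6, all without GCV. In the mice with GCV it was -0.25 in mouse 1, -0.66 in mouse 2 and -0.96 in mouse 5. Mouse 4 thus had the smallest change and mouse 5 the largest. The pattern over genes was shared by the other 5 mice and not by mouse 4: between any of mice 1, 2, 3, 5 and 6 the differences of the 38 genes correlated with Pearson's r from 0.56 to 0.97, whereas mouse 4 correlated with the others at -0.16 to 0.32.

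**Figure D2:**
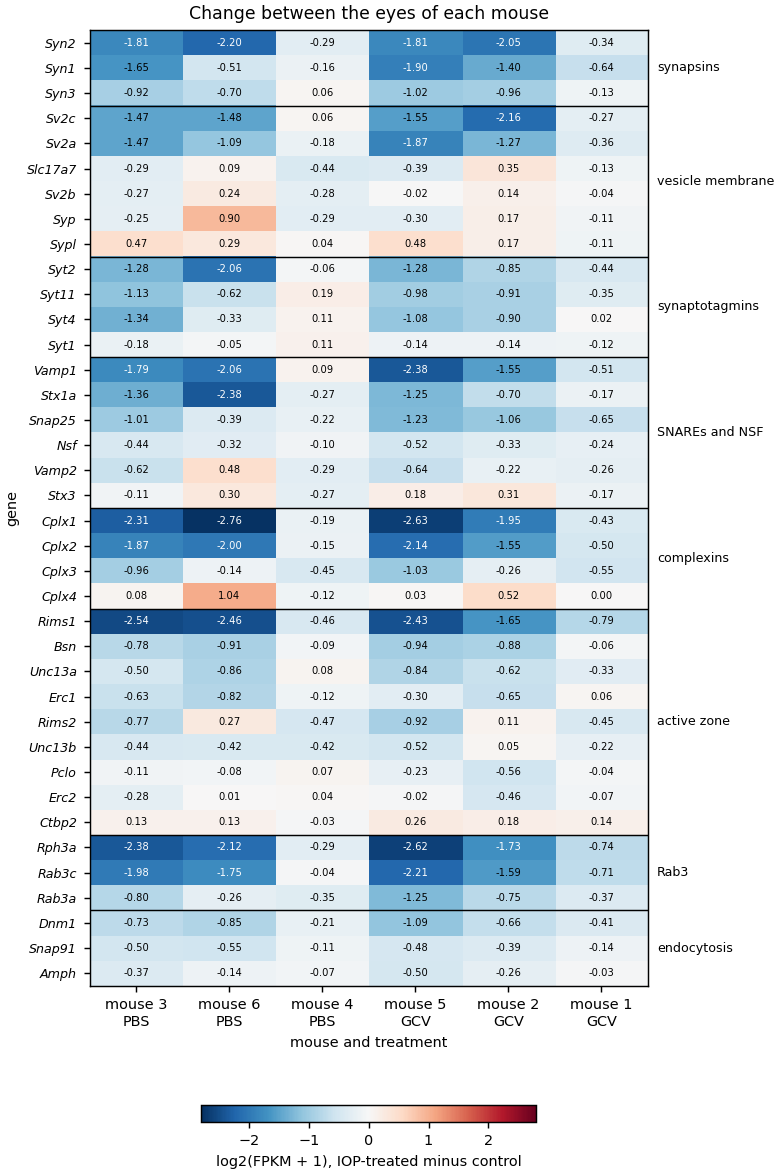
Difference in log2(FPKM + 1) between the IOP-treated and the control eye of each mouse (columns, with the treatment) for the 38 genes (rows, grouped by role), blue for lower and red for higher in the IOP-treated eye. Columns 3 and 6 from the left, mice 4 and 1, are pale, and the rows of Cplx1, Rims1, Rph3a and Syn2 are among the darkest in the other 4 mice.

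The active zone genes held both the largest fitted fall over the 6 mice on the log2(FPKM + 1) scale, that of Rims1, and genes with small fitted changes. With GCV alone the fitted changes of Rph3a (-1.69) and Cplx1 (-1.67) were further from 0 than that of Rims1 (-1.62), with standard errors of 0.59, 0.64 and 0.56. Rims1 (ENSMUSG00000041670, chr1:22286251-22805994, minus strand) encodes RIM1, the scaffold that links vesicles, calcium channels and Munc13. In the mice without GCV, Rims1 stood at 10.2, 12.4 and 10.7 FPKM in the ctrl retinas of mice 3, 4 and 6 and at 0.932, 8.78 and 1.13 FPKM in their IOP retinas. In the mice with GCV it stood at 12.2, 20.0 and 15.9 FPKM in the ctrl-GCV retinas of mice 1, 2 and 5 and at 6.65, 5.70 and 2.14 FPKM in the IOP-GCV retinas. All 6 IOP-treated retinas lay below all 6 control retinas, and mouse 4 came nearest to its control. The fitted change was -1.72 (SE 0.39, limma adjusted p = 0.0242).

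Unc13b, which encodes the priming factor Munc13-2 (chr4:43058953-43264871, plus strand), had a smaller fitted change. It measured 26.8, 27.8 and 31.9 FPKM in the ctrl retinas of mice 3, 4 and 6 against 19.5, 20.5 and 23.6 FPKM in IOP, without overlap, and 27.2, 24.4 and 28.5 FPKM in the ctrl-GCV retinas of mice 1, 2 and 5 against 23.2, 25.2 and 19.6 FPKM in IOP-GCV, where the groups overlapped because mouse 2 had the higher value in its IOP-treated eye. The fitted change was -0.33 (SE 0.08, limma adjusted p = 0.0347). Ctbp2 (chr7:132987563-133124354, minus strand) was the most abundant gene of this role. It measured 81.1, 75.8 and 76.3 FPKM in ctrl and 88.7, 73.9 and 83.5 FPKM in IOP, which overlapped, and 74.8, 72.6 and 69.2 FPKM in ctrl-GCV against 82.5, 82.2 and 83.2 FPKM in IOP-GCV, where all 3 IOP-GCV values were the higher ones. Its fitted change of 0.13 missed the threshold (limma adjusted p = 0.156). The row counts the whole gene, so the RIBEYE transcript, whose own first exon of 1731 bases starts inside the gene at position 133015248, could not be told apart from the transcripts for the nuclear corepressor CtBP2. In the annotation 314 exonic bases of Ctbp2 also overlap exons of Fgfr2 on the same strand, so reads there could not be assigned by strand.

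None of the other 6 active zone genes was called. Bsn (bassoon, which anchors ribbons and organises the active zone), Unc13a (Munc13-1) and Erc1 had fitted changes of -0.61, -0.51 and -0.41 with limma adjusted p of 0.0568, 0.104 and 0.178. Bsn lay between 3.94 and 6.45 FPKM in the control retinas and between 2.26 and 5.21 FPKM in the IOP-treated retinas. Rims2, Pclo (piccolo) and Erc2 had fitted changes of -0.37, -0.16 and -0.13, with limma adjusted p of 0.202, 0.326 and 0.375. Pclo ranged over 8.60 to 11.2 FPKM in control and 7.11 to 11.9 FPKM in IOP-treated retinas.

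Of the 4 complexins 3 fell, against 5.44% of all rows. Cplx1 (chr5:108518554-108550024, minus strand) measured 91.7, 102 and 110.1 FPKM in the ctrl retinas of mice 3, 4 and 6 and 17.7, 89.4 and 15.4 FPKM in their IOP retinas. It measured 93.5, 195 and 119 FPKM in the ctrl-GCV retinas of mice 1, 2 and 5 and 69.2, 49.5 and 18.3 FPKM in their IOP-GCV retinas. Every IOP-treated value lay below every control value, although the IOP retina of mouse 4 was just under the lowest control, and the fitted change was -1.71 (SE 0.45, limma adjusted p = 0.0382). Cplx2 (chr13:54371349-54383917, plus strand) behaved much alike, with 44.0, 50.3 and 58.2 FPKM in ctrl and 11.4, 45.1 and 13.8 FPKM in IOP, where mouse 4 overlapped with the controls. With GCV it measured 46.6, 81.2 and 58.3 FPKM in ctrl-GCV and 32.6, 27.0 and 12.4 FPKM in IOP-GCV, without overlap, and the fitted change was -1.37 (SE 0.34, limma adjusted p = 0.0319).

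Cplx3 (chr9:57599992-57606281, minus strand), a complexin of ribbon synapses that some amacrine cells also make, fell less. It measured 227, 232 and 184 FPKM in ctrl and 117, 169.8 and 167 FPKM in IOP (mice 3, 4 and 6), and 254, 219 and 231 FPKM in ctrl-GCV and 173, 184 and 112 FPKM in IOP-GCV (mice 1, 2 and 5). The highest IOP-treated value, in mouse 2, equalled the lowest control value, in mouse 6, to within 1 FPKM, and the fitted change was -0.56 (SE 0.15, limma adjusted p = 0.0368). Cplx4, the most abundant complexin and a protein of photoreceptor terminals, was not called. It measured 490.4, 406 and 442 FPKM in ctrl, 519, 373 and 907 FPKM in IOP, 439.8, 354 and 431 FPKM in ctrl-GCV and 441, 509 and 439 FPKM in IOP-GCV. The groups overlapped, the library of mouse 6 that stood apart held the high value, and the fitted change was 0.26 (SE 0.20, limma adjusted p = 0.416).

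The IOP-treated minus control difference of Cplx1 was below that of Cplx4 in 6 of 6 mice, by -1.97 on average (SD 1.43, n = 6 mice; exact two-sided sign-flip test p = 0.03125, the smallest that 6 mice allow). The same held for Cplx2 against Cplx4 (-1.63) and for Cplx3 against Cplx4 (-0.82), each in 6 of 6 mice. Among 25 pairs of related genes compared in this way, which were chosen after the values had been seen, 6 reached p = 0.03125 in the exact test. The other 3 were Syn2 against Syn3, Syt2 against Syt1 and Stx1a against Stx3. With Benjamini-Hochberg adjustment over the 25 pairs the smallest adjusted p was 0.120, so none passed 0.05 in this exact test.

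The vesicle-tethering synapsins were lower in all but 1 of the 18 comparisons between eyes. Syn2 (chr6:115134902-115282006, plus strand) measured 9.60, 12.6 and 12.4 FPKM in the ctrl retinas of mice 3, 4 and 6 and 2.01, 10.1 and 1.93 FPKM in their IOP retinas. It measured 12.3, 20.1 and 12.3 FPKM in the ctrl-GCV retinas of mice 1, 2 and 5 and 9.55, 4.11 and 2.78 FPKM in their IOP-GCV retinas. The IOP retina of mouse 4 was the only IOP-treated value above the lowest control value, and the fitted change was -1.42 (SE 0.36, limma adjusted p = 0.0353). Syn1, the most abundant synapsin, measured 53.2, 66.6 and 71.9 FPKM in ctrl and 16.3, 59.3 and 50.1 FPKM in IOP, which overlapped. With GCV it measured 68.3, 107 and 76.3 FPKM in ctrl-GCV and 43.6, 39.8 and 19.6 FPKM in IOP-GCV, which did not overlap. Its fitted change of -1.05 (SE 0.31) missed the threshold with a limma adjusted p of 0.0546, and so did the change of Syn3, at -0.61 with an adjusted p of 0.0908. In 13 of the 38 genes some exonic bases overlap exons of another annotated gene, the longest stretch being 1919 bases of Erc1, opposite an antisense gene. Shorter ones include 875 bases of Syp, 566 of Syt4 and 495 of Unc13a, all on the opposite strand. Likewise 1733 exonic bases of Syn3 and 90 of Syn2 overlap exons of Timp3 and Timp4 on the opposite strand, and Timp1 lies inside an intron of Syn1. The kit was stranded but the strand setting of the counting is not given in the sources used here, so reads of such neighbours may be included.

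Of the Rab3 group, which guides vesicles to the active zone, 2 of 3 genes fell, against 5.44% of all rows. Rph3a (chr5:120940499-121010092, minus strand) encodes rabphilin, a Rab3 effector, and measured 56.6, 72.6 and 73.5 FPKM in ctrl and 10.1, 59.3 and 16.1 FPKM in IOP for mice 3, 4 and 6. With GCV it measured 73.4, 103 and 73.9 FPKM in ctrl-GCV and 43.6, 30.5 and 11.2 FPKM in IOP-GCV for mice 1, 2 and 5. Mouse 4 again gave the only overlap with the controls, and the fitted change was -1.64 (SE 0.42, limma adjusted p = 0.0343). Rab3c (chr13:110054187-110280996, minus strand) measured 13.2, 16.0 and 15.8 FPKM in ctrl and 2.59, 15.6 and 3.96 FPKM in IOP, then 15.0, 22.6 and 18.4 FPKM in ctrl-GCV and 8.76, 6.82 and 3.19 FPKM in IOP-GCV, with the same mouse 4 overlapping and a fitted change of -1.38 (SE 0.35, limma adjusted p = 0.0345). Rab3a, the main Rab3 of neurons, was more abundant and differed less. It measured 290.1, 319 and 306 FPKM in ctrl, 166, 250.2 and 255 FPKM in IOP, 309.7, 424 and 313 FPKM in ctrl-GCV and 239, 252 and 131 FPKM in IOP-GCV. All 6 IOP-treated values lay below all 6 control values, yet the fitted change, -0.63 (SE 0.18, limma adjusted p = 0.0505), just missed the threshold.

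Among the fusion machinery, Snap25 (chr2:136713453-136782428, plus strand), the plasma membrane SNARE of most retinal synapses, fell and was one of the most abundant of the 38 transcripts. It measured 887, 943 and 1138 FPKM in ctrl and 441, 810.1 and 870.3 FPKM in IOP for mice 3, 4 and 6. With GCV it measured 1010, 1279 and 1018 FPKM in ctrl-GCV and 643, 613 and 434 FPKM in IOP-GCV for mice 1, 2 and 5. The groups did not overlap in either treatment, and the fitted change was -0.76 (SE 0.21, limma adjusted p = 0.0415). Nsf (chr11:103821782-103954056, minus strand), the ATPase that takes spent SNARE complexes apart, measured 184, 182 and 189.9 FPKM in ctrl, 135, 169.6 and 152 FPKM in IOP, 197, 203 and 189 FPKM in ctrl-GCV and 167, 161 and 132 FPKM in IOP-GCV. Its 6 IOP-treated values were also all below the 6 control values, and the fitted change was small, -0.33 (SE 0.08, limma adjusted p = 0.0349).

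The vesicle SNARE Vamp1 fell with a fitted change of -1.37 (SE 0.39, limma adjusted p = 0.0476), from 39.2 to 80.4 FPKM in the control retinas to 8.80 to 44.8 FPKM in the IOP-treated retinas. Its paralogue Vamp2 had a fitted change of -0.26 (limma adjusted p = 0.425), with 730.5 to 813 FPKM in control and 469 to 1115 FPKM in IOP-treated retinas. Neither syntaxin was called. Stx1a, of conventional synapses, had a fitted change of -1.02 (adjusted p = 0.0766) and ranged over 3.75 to 7.43 FPKM in control and 0 to 4.19 FPKM in IOP-treated retinas, while Stx3, of ribbon synapses, had a fitted change of 0.04 (adjusted p = 0.864) and ranged over 383 to 541 FPKM in control and 367 to 558 FPKM in IOP-treated retinas.

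**Figure D3:**
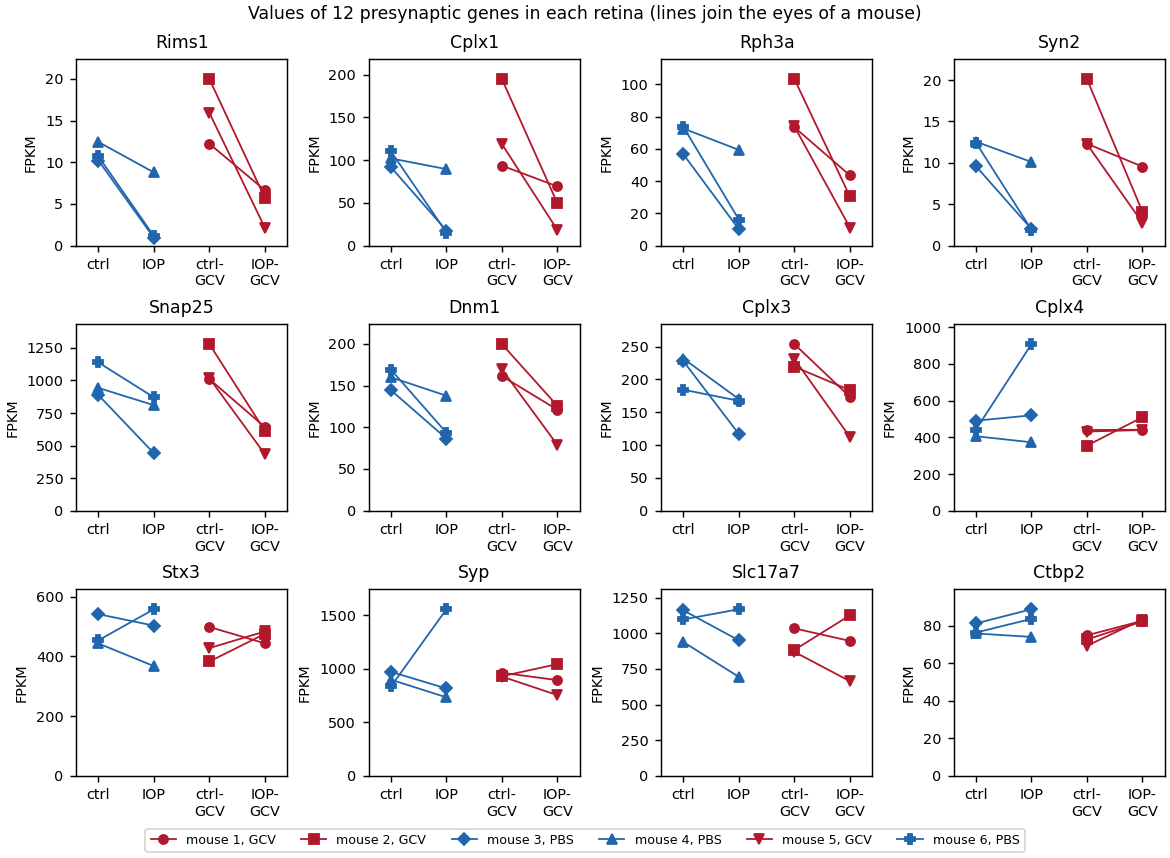
FPKM (vertical axis, linear, from 0) of 12 of the genes in each of the 12 retinas, in the groups ctrl, IOP, ctrl-GCV and IOP-GCV, with a line joining the eyes of a mouse and a symbol for each mouse. Rims1, Cplx1, Rph3a and Syn2 drop steeply in all mice but mouse 4 (blue triangles) and, less so, mouse 1 (red circles), while Cplx4, Stx3, Syp, Slc17a7 and Ctbp2 do not drop together.

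Of the vesicle membrane proteins, Slc17a7, the vesicular glutamate transporter VGLUT1 of photoreceptors and bipolar cells, was the most abundant of the 38 transcripts. It measured 1161, 939 and 1098 FPKM in ctrl and 951, 694 and 1170 FPKM in IOP, then 1035, 884 and 870.0 FPKM in ctrl-GCV and 947, 1126 and 664 FPKM in IOP-GCV. The groups overlapped in both treatments, with mice 2 and 6 higher and the other 4 mice lower in the IOP-treated eye, and the fitted change was -0.13 (SE 0.19, limma adjusted p = 0.684). Syp (synaptophysin) was not called either, with a fitted change of 0.02 (adjusted p = 0.964), 833 to 969.9 FPKM in control and 732 to 1554 FPKM in IOP-treated retinas. Of the 3 SV2 glycoproteins 2 fell, against 5.44% of all rows, and neither stayed called with the mouse as a block. Sv2a fell with a fitted change of -1.04 (SE 0.29, limma adjusted p = 0.0451), between 67.1 and 117 FPKM in control and 23.0 and 74.0 FPKM in IOP-treated retinas. Sv2c, at a low level of 2.34 to 6.80 FPKM in control and 0.245 to 3.33 FPKM in IOP-treated retinas, fell with a fitted change of -1.14 (SE 0.32, limma adjusted p = 0.0463). That scale understates low genes: as the plain log2 ratio of the eyes, averaged over the 6 mice, Sv2c stood at -2.03 (SD 1.48), between Rims1 at -2.13 (SD 1.26) and Cplx1 at -1.75 (SD 1.16), among the 36 genes above 0 in all libraries. Sv2b had a fitted change of -0.04 (adjusted p = 0.849). Sypl, a synaptophysin relative found outside neurons as well, had a fitted change of 0.22 (adjusted p = 0.168).

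None of the synaptotagmins was called. Syt1, the main calcium sensor for fast release, measured 343, 350.5 and 331 FPKM in ctrl, 302, 379 and 319.7 FPKM in IOP, 348, 372 and 364 FPKM in ctrl-GCV and 322, 337 and 329.7 FPKM in IOP-GCV. The ctrl and IOP groups overlapped, the GCV groups did not, and the fitted change was -0.09 (SE 0.08, limma adjusted p = 0.537). Syt2, the sensor of fast-spiking terminals, had a fitted change of -0.99 (adjusted p = 0.0603), and its control values of 3.09 to 4.96 FPKM stood against 0 to 3.26 FPKM in the IOP-treated retinas. Syt4 and Syt11, which do not act as fast calcium sensors, had fitted changes of -0.59 and -0.63 (adjusted p = 0.151 and 0.0983).

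Of the endocytic genes 2 of 3 fell, against 5.44% of all rows, and all 3 were lower in the IOP-treated eye of 6 of 6 mice, against 10.1% of all rows. Dnm1 (chr2:32308471-32353338, minus strand), the dynamin of nerve terminals, measured 144, 159.8 and 169 FPKM in ctrl and 86.4, 138 and 93.4 FPKM in IOP for mice 3, 4 and 6, and 161, 199.6 and 169 FPKM in ctrl-GCV and 121, 126 and 78.8 FPKM in IOP-GCV for mice 1, 2 and 5. The groups did not overlap, and the fitted change, -0.66 (SE 0.15, limma adjusted p = 0.0227), had the smallest adjusted p of the 38. Snap91 (chr9:86765923-86880654, minus strand), the clathrin assembly protein AP180, measured 86.4, 81.5 and 86.1 FPKM in ctrl, 60.6, 75.4 and 58.4 FPKM in IOP, 84.5, 91.6 and 80.6 FPKM in ctrl-GCV and 76.8, 69.7 and 57.6 FPKM in IOP-GCV. Again the IOP-treated values were all below the control values, with a fitted change of -0.36 (SE 0.09, limma adjusted p = 0.0308). Amph (amphiphysin), which brings dynamin to the membrane, was not called, with a fitted change of -0.23 (adjusted p = 0.127).

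Counted over the 38 genes, every IOP value lay below every ctrl value in 10 (26.3%, against 8.81% of all rows), and every IOP-GCV value lay below every ctrl-GCV value in 25 (65.8%, against 15.3%). In 8 genes, Snap25, Nsf, Cplx1, Cplx3, Rims1, Rab3a, Snap91 and Dnm1, all 6 IOP-treated retinas lay below all 6 controls (21.1%, against 2.44%). The size of the change went with the level only loosely, with Pearson's r = 0.36 across the 38 genes between the mean level on the log2 scale and the fitted change. The fitted change is on the log2(FPKM + 1) scale, which understates low genes and so weakens this relation. Of the 8 genes whose mean reached 200 FPKM, 1 was called (Snap25), and of the other 30, 14 were called, against 5.44% of all rows called lower. The shares of all rows at these levels were not computed, so the counts do not show an effect of level.

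Split by type of synapse, the lists had different medians, given as a description with no test. The 6 genes of conventional synapses (Syn1, Syn2, Syn3, Stx1a, Cplx1 and Cplx2) had a median fitted change of -1.21, 3 of 6 (Syn2, Cplx1 and Cplx2) were called lower, against 5.44% of all rows, and 6 of 6 were lower at an unadjusted p under 0.05, against 16.1% of all rows (limma). The 5 genes of ribbon synapses (Stx3, Cplx3, Cplx4, Ctbp2 and Slc17a7) had a median of 0.04, and 1 of 5, Cplx3, was called lower. With the mouse as a block 0 of the 6 and 0 of the 5 were called (limma). The 3 conventional calls became 6 without the IOP retina of mouse 4 or both retinas of that mouse, 3 without the IOP-GCV retina of mouse 1, 1 without the ctrl-GCV retina of mouse 1 or the IOP-GCV retina of mouse 2, and 0 without any other single library. The ribbon list had 0 or 1 called lower over the same fits, and its median became -0.02 without the IOP retina of mouse 6. By mouse, the conventional list had medians of -0.38, -1.48, -1.73, -0.18, -1.86 and -2.10 in mice 1 to 6. The ribbon list had medians of -0.13, 0.31, -0.11, -0.27, 0.03 and 0.13. The conventional list was the lower one in every mouse but mouse 4. The sum of the 6 conventional genes ran from 205 to 415 FPKM in the control retinas and from 49.2 to 211 FPKM in the IOP-treated retinas. For the 5 ribbon genes it ran from 1913 to 2501 and from 1678 to 2886 FPKM.

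Markers of the cell types moved alongside. Of 12 RGC markers, 10 were called lower over the 6 mice, against 5.44% of all rows (limma, median -1.23), with summed levels of 938 to 1904 FPKM in control and 228 to 1032 FPKM in IOP-treated retinas. Of 10 amacrine markers, 7 were called lower (median -1.01), with sums of 696 to 1205 against 178 to 609 FPKM. Of 10 bipolar and 10 rod markers, 0 were called with limma (5 and 1 were lower at an unadjusted p under 0.05, against 16.1% of all rows), with medians of -0.60 and -0.26. Without the IOP retina of mouse 4 the bipolar count was 5, and without both retinas of mouse 4 it was 3. Other retinal cell types held called genes as well. Of 5 horizontal cell markers tested, 1 (Lhx1) was called lower, 5 were lower at an unadjusted p under 0.05, against 16.1% of all rows (limma, median -0.54), and 5 were lower in the IOP-treated eye of all 6 mice, against 10.1% of all rows. Several of these markers were near the floor. In the control retinas Lhx1 measured 0.896 to 1.66 FPKM, Onecut1 0.879 to 1.17 FPKM and Onecut2 0.286 to 0.485 FPKM. Lhx1 and Onecut1 were at 0 in the IOP retina of mouse 6. Of 8 Müller glia markers, 3 were called lower (Glul -1.28, Rlbp1 -0.65 and Car2 -0.50) and 1 higher (Apoe 0.96), with a median of -0.40. Of 8 cone markers, 1 was called lower (Arr3, -1.28), with a median of -0.22. Of 8 markers of the pigment epithelium 1 was called lower, which was Rlbp1 again, and of 7 of the ciliary body, iris and cornea and 6 of blood 0 were called and 0 had an unadjusted p under 0.05 (limma). Microglial markers were called higher in 10 of 10 and those of reactive glia in 8 of 8, against 6.76% of all rows. With the mouse as a block the counts were 3 RGC and 6 amacrine markers lower and 9 microglial and 8 reactive glial markers higher. Without both retinas of mouse 6 they were 1, 1, 9 and 8. For horizontal cell markers the count of 1 stayed 1 with the block, was 0 without mouse 6 and 5 without mouse 4. For Müller glia the 3 lower and 1 higher became 2 and 0 with the block and 1 and 0 without mouse 6, and for cones the count was 1 in each of these fits. Leaving out any 1 library gave 2 to 12 RGC, 1 to 10 amacrine, 0 to 5 bipolar, 0 to 5 horizontal cell, 1 to 5 Müller glia and 1 to 2 cone markers called lower, with the highest count of each but the cones without the IOP retina of mouse 4, and 9 to 10 microglial and 8 reactive glial markers called higher. The summed level of lens markers lay between 6.18 and 122 FPKM in 5 of the 6 control retinas and at 6756 FPKM in the ctrl-GCV retina of mouse 1, and at 96.5 FPKM in the IOP retina of mouse 3 and between 3086 and 6147 FPKM in the other 5 IOP-treated retinas. Of 8 lens markers, 5 were called higher over the 6 mice (median 3.56), 6 with the mouse as a block, 0 without both retinas of mouse 6, and 0 to 7 on leaving out any 1 library (limma). Per mouse, the RGC markers had their smallest median change in mouse 4, -0.03, and the amacrine markers too, -0.27, the mouse in which the presynaptic genes also changed least. Rod and cone markers instead had their largest fall in mouse 4, with medians of -0.58 and -0.72, where the other 5 mice had -0.45 to 0.24 and -0.39 to 0.30. The part of these cell types and tissues in the presynaptic values was not tested.

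**Figure D4:**
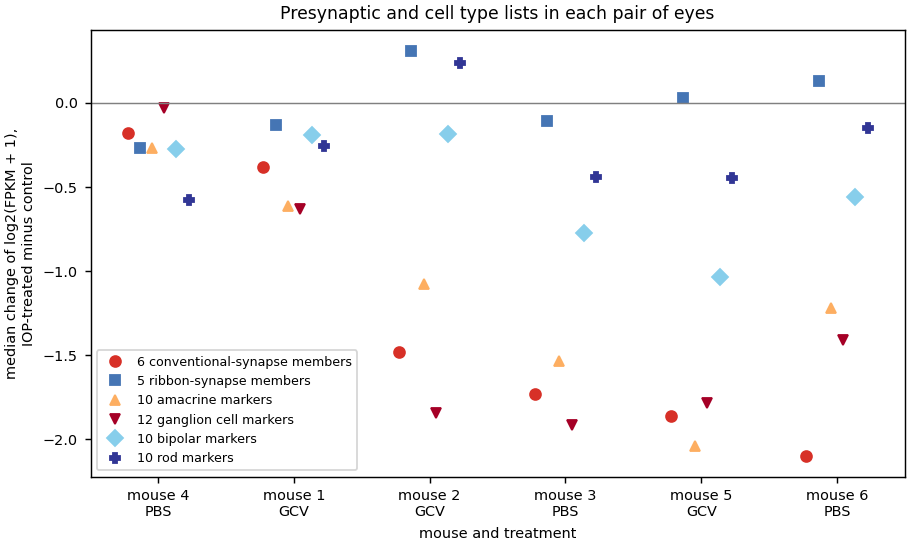
Median difference in log2(FPKM + 1) between the IOP-treated and the control eye (vertical axis) in each mouse (horizontal axis, with its treatment) for 6 conventional-synapse genes, 5 ribbon-synapse genes and markers of amacrine cells, RGCs, bipolar cells and rods. The conventional list lies below the ribbon list in all mice but mouse 4, and the ribbon list stays between -0.27 and 0.31 in all 6 mice.

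GCV made no detectable difference to the 38 genes. In the test of the difference between the IOP effects with and without GCV, 0 of 38 were called (0% of all rows were called) and 0 had an unadjusted p under 0.05, against 0.708% of all rows lower and 1.23% higher. The fitted differences, with GCV minus without, ran from -0.54 for Syn1 to 0.63 for Stx1a, with a median of -0.10 and standard errors of 0.12 to 0.90, and the sign of that median depended on single libraries: it became 0.12 without the IOP retina of mouse 4, 0.10 without the IOP-GCV retina of mouse 5, 0.11 with limma array weights and -0.27 without the IOP retina of mouse 3. Between IOP-GCV and IOP retinas 0 of 38 were called (0% of all rows) and 0 had an unadjusted p under 0.05 (1.59% of all rows were lower and 2.59% higher), with a range of -0.30 to 0.84 and a median of 0.03, which ran from -0.12 (without the IOP retina of mouse 3) to 0.18 (without the IOP-GCV retina of mouse 5). Between ctrl-GCV and ctrl retinas 0 of 38 were called (0% of all rows) and 0 had an unadjusted p under 0.05 (0.859% lower and 0.735% higher), with a median of 0.14 and a range of -0.20 to 0.47. These last comparisons share libraries with the others and are between mice. All counts in this paragraph are from limma.

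A wider list of 63 further presynaptic genes, which includes the transporters and enzymes Gad1, Gad2, Slc17a6, Slc32a1, Slc18a3 and Slc6a9 that also stand among the cell type markers, had a median change of -0.33 over the 6 mice. Of the 63, 18 fell (28.6%, against 5.44% of all rows) and 4 rose (6.35%, against 6.76% of all rows), so that the share that rose was near the background (limma, adjusted p under 0.05). With the mouse as a block 10 were called lower and 1 higher, and without both retinas of mouse 6 the counts were 4 and 3. Over the fits that leave out 1 library they ran from 3 to 32 and from 1 to 5, with the highest without the IOP retina of mouse 4. The smallest adjusted p in this list was that of Lin7b, a scaffold of the CASK complex, which rose, with 4.54 to 9.01 FPKM in the control and 11.9 to 40.0 FPKM in the IOP-treated retinas (log2 change 1.76, adjusted p = 0.00376). Scamp1, a vesicle carrier protein, fell from 64.7 to 68.8 FPKM in the control retinas to 49.3 to 59.2 FPKM in the IOP-treated retinas (-0.32, adjusted p = 0.0113). Slc6a9, the glycine transporter of amacrine cells, fell from 48.1 to 56.1 FPKM to 17.7 to 41.2 FPKM (-0.89, adjusted p = 0.0150). The other 3 that rose were Syngr2 (1.51), Rab3d (0.59) and Doc2b (0.35), named after their values were seen. Without GCV, Lin7b was the only one of the 63 called, higher with a limma adjusted p of 0.0422, against 1.42% of all rows called higher, which is near that share. With GCV it was Syt10, called lower with an adjusted p of 0.0490, against 0.157% of all rows called lower.

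The sequences before the start of some of these genes are shown for Rims1 and Cplx1, which had the largest fitted falls over the 6 mice on the log2(FPKM + 1) scale, and for Syn1 and Ctbp2, a gene of conventional and a gene of ribbon synapses whose promoters held a searched motif. RefSeq promoters (GRCm38.p6, the build named mm10 in the submitters' processing notes) were found for 32 of the 38 genes, 43 promoters in all, and the 250 bases before each start were searched on both strands for 3 motifs of known factors. These were TGACGTCA (the cAMP response element, CRE), TAATCC (bound by the photoreceptor factor CRX) and TTCAGCACC (the left part of RE1, the site of the neuronal repressor REST), which do not overlap one another. Of 32851 promoters in the reference, 1.55% held the CRE, 6.25% the CRX motif and 0.301% the left part of RE1. Of the 43 promoters of these genes 1, 4 and 1 did. Both the CRE and the RE1 part were in the promoter of Syn1, 159 and 232 bases before the start, and the CRX motif was in a promoter of Ctbp2, in 2 of Sv2b and in that of Syp. The promoters of Rims1 and Cplx1 held none of the 3. All 4 sequences below are on the minus strand, written 5′ to 3′, with motif matches in capitals; for Syn1 the bases inside its annotated first exon are left out, and for Ctbp2 only the surroundings of the match, 121 bases before the RIBEYE start, are given.
Rims1, chr1:22806159-22806408: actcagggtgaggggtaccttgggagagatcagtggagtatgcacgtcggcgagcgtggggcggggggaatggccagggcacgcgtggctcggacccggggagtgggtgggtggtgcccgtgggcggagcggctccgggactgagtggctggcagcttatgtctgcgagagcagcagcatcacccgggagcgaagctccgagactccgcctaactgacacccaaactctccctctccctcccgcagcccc
Cplx1, chr5:108550028-108550277: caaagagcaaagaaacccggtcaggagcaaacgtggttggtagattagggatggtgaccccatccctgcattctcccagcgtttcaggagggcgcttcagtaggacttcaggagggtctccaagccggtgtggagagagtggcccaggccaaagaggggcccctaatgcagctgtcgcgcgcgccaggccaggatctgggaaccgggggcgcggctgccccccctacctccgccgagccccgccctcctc
Syn1, chrX:20921005-20921168: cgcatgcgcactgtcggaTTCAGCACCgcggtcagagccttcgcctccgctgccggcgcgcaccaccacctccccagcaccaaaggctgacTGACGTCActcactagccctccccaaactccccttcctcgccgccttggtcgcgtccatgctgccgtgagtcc
Ctbp2, chr7:133015353-133015378: aggtttcagaGGATTAataatttagg
The Rims1 and Cplx1 stretches hold 19 and 15 CpG dinucleotides in 250 bases and the Syn1 stretch 16 in 164. In Ctbp2 the match reads GGATTA, the reverse complement of TAATCC. A match says only that these letters are present, and the absence of one says nothing about the factor.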

How the data were processed

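Whole retinas were sequenced from 6 mice, 2 libraries a mouse, with a stranded TruSeq mRNA kit and paired reads. The authors deposited 1 table of 24340 rows and 12 library columns whose values are FPKM. The unit was inferred from the values, and counts are not in the table. The study's methods name counting on exons of RefSeq genes with HOMER, while the submitters' processing notes name TopHat2, Bowtie2, Cufflinks, Cuffdiff and mm10, so which tool made the values is not certain, and the annotation version is not given in the sources used here. No column was left out (0 unused). Depth was estimated at 4020000 to 9060000 fragments per library from low values among 1713 genes with 1 annotated transcript, 1500 bases or longer. Each library gave 253 to 354 such values, of which 75.0% to 81.1% lay within 0.1 of a whole number of fragments. The depth was chosen to bring these values near whole numbers, so that share is no separate check of it. At these depths values of a few FPKM rest on few fragments in short genes, and no interval per value was computed.

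A test on counts had been the choice had the table held counts. Since it holds FPKM, log2(FPKM + 1) was tested with limma 3.58.1 in R 4.3.3 (4 group means, variance trend), over the 18509 rows above 0 in at least 1 library, with Benjamini-Hochberg adjustment over all of them and a threshold of 0.05. Fold changes are on the log2(FPKM + 1) scale, which understates the change of low genes. The study's methods state no test for this table. The 6 comparisons were IOP against ctrl without GCV, with GCV, the mean of these effects over the 6 mice, their difference, and GCV against none in IOP-treated and in control retinas. Same-numbered retinas come from the same mouse, so the mouse was tried as a block. Deviations from the group means of the eyes of a mouse correlated at -0.12, 0.13, 0.21, 0.39, 0.17 and 0.10 in mice 1 to 6 (12910 genes averaging 1 FPKM or more).

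The 38 genes, the lists by role, synapse and cell type, and the tests were chosen with earlier results of these data known. Values in every library are given for the 12 called genes of lowest adjusted p, the most abundant gene of each role and the 2 largest changes in each IOP comparison, and of the wider list at most the 3 smallest adjusted p in each IOP comparison. Other genes are given by range or fitted change. Pairs of related genes were compared with exact sign-flip tests over mice, added after the values had been seen. Simulated tables with known changes were used to check the fit. Gene positions are from GENCODE M21 on GRCm38, the assembly named mm10, and promoters from RefSeq. Python 3.11.15 (matplotlib 3.10.9, numpy 2.4.6, pandas 2.3.3) was used for tables and figures. Protein sequences were not used here.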

Additional observations from a re-analysis of the deposited data

How the results depend on the processing

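With the mouse as a block, which pairs the eyes of an animal, the 15 calls over the 6 mice became 4, and the other counts of the 38 genes for which the block could be fitted (IOP without GCV, with GCV and their difference) stayed at 0. The GCV comparisons are between mice and could not be fitted with it. Counts of the marker and wider lists under the block are given beside those lists. The count was 0 without both retinas of mouse 6, 22 without both retinas of mouse 4 and 26 at an unadjusted p under 0.05, and ranged over 0 to 26 on leaving out any 1 library, the 26 being 25 lower and 1 higher. The count of 0 without GCV became 1 without both retinas of mouse 4, 15 at an unadjusted p and 0 to 17 with single libraries left out, the 17 being without the IOP retina of mouse 4. With GCV the 0 became 4 with limma array weights, 1 without both retinas of mouse 4, 20 at an unadjusted p and 0 to 8 with single libraries left out, the 1 and the 8 being without the IOP retina of mouse 3 or 4, which enter through the shared estimate of the spread. Where a group was left with 2 libraries, its spread was taken from all groups. Array weights, a fit without the variance trend, quantile normalization, scaling by median ratios, a pseudocount of 0.1 and keeping rows that reach 1 FPKM in 3 libraries gave 14 to 19 calls over the 6 mice. No value changed direction past a threshold under any alternative, though the median of the difference of the IOP effects, which has no test, changed sign without the IOP retina of mouse 4 or the IOP-GCV retina of mouse 5 and with array weights, and the counts of 0 for GCV and for the difference of the IOP effects stayed at 0. Leaving out both retinas of a mouse was chosen after seeing the data, as was a pseudocount of 0.1 for the pairs of related genes, with which 9 of 25 pairs reached p = 0.03125 and the smallest adjusted p was 0.0868 (exact sign-flip test). Depth limits the low genes most, and the IOP library of mouse 6 was the shallowest.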
